A study of Rattus norvegicus with 16 samples.

Results

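The ovaries of BRCA1+/- rats were compared with those of wild-type rats, pooled over a vehicle arm and an olaparib arm. All 8 arrays of BRCA1+/- animals were set against all 8 arrays of wild-type animals, which is every one of the 16 arrays of the series. The genotype difference of a gene was the mean of its difference between vehicle-treated animals and its difference between olaparib-treated animals, so that each arm counted equally. It was computed for 20354 genes, of which 15207 carried a gene symbol, and is given as BRCA1+/- minus wild-type on the log2 scale, where a value of 1 is a ratio of 2 and a negative value means a lower level in BRCA1+/- ovaries.

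Each genotype had a vehicle group and an olaparib group, which makes 4 groups of 4 female rats, all of the Jcl:SD stock, an outbred Sprague-Dawley stock from CLEA Japan. Olaparib, an inhibitor of PARP1 and PARP2, was given under the skin at 50 mg/kg once daily for 14 days from 3 weeks of age, and ovaries were taken 24 h after the last dose. The BRCA1+/- animals carry 1 mutant copy of the gene in every cell, not only in the ovary. The mutation's position in the gene, the relatedness of the animals and the vehicle's composition are not given in the sources used here. One fresh ovary sample per animal was hybridised to a single-colour Agilent rat array, which reports the brightness of 60-base probes.

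BRCA1 is a large nuclear protein that works with its partner BARD1 as a ubiquitin ligase and brings PALB2 and BRCA2 to DNA double-strand breaks for repair by homologous recombination. Cells without functional BRCA1 depend on PARP for the repair of single-strand breaks, which is why BRCA1-mutant tumours are treated with olaparib. In the ovary, oocytes of primordial follicles wait for months or years in meiotic arrest and are sensitive to unrepaired breaks, and human carriers of 1 mutant copy have a raised risk of ovarian cancer. The comparison asks what 1 mutant copy does to the transcriptome of the young ovary.

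Brca1 and Kctd7, the single gene whose arrays did not overlap between the genotypes, were each read by 1 probe here, and Gzmb and Calb2, which had large differences, by 2 probes each. The first 30 bases of these probes, from the array files, show which sequence each value below rests on, with positions on rat build rn4 as the array design gives them for the whole probe.
Brca1, chr10:90512623-90512682: gagacctgattatacaggtatgtttataat
Kctd7, chr12:27564337-27564396: tgtagtctcctgttcgtgtaccttggggac
Gzmb, chr15:35195458-35195517: ctgtgacaacccagctgacatctgctagtt
Gzmb, chr15:35196479-35196538: atttcgacaaagccaatgagatatgtgcag
Calb2, chr19:40023194-40023254: caattccaggttctgtccaccggcttgcta
Calb2, chr19:40023073-40023132: cctgtcttctcgtttaccaaagaagagttt
No capitals are used, since no base of a probe is singled out.

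The 16 arrays were of similar quality. The 75th percentile of the processed signal, which the authors set to 0 in each array's log2 values, was 202 to 566 intensity units, the share of probes well above background 55.5% to 60.7%, and no array had a saturated spot. The pairwise Pearson correlations ranged from 0.902 to 0.992. Of 10 ovarian markers, 9 were well above background on all 16 arrays, among them Amh, Foxl2, Gdf9 and Zp3, and Cyp19a1 was on 15. Each group occupied its own array column on both slides, so the genotypes cannot be told apart from the array columns. Replicates 1 and 2 of every group lay on slide 1 and replicates 3 and 4 on slide 2, so both slides held all groups. The mean log2 level of 16 ciliated oviduct genes, each gene centred over the 16 arrays, was above 0 on 6 arrays: replicates 1 and 3 of wild-type with olaparib, at 3.16 and 3.06, replicates 3 and 4 of BRCA1+/- with vehicle, at 3.53 and 1.27, and replicates 3 and 4 of BRCA1+/- with olaparib, at 2.35 and 1.45. The other 10 arrays were between -2.37 and -0.54. These arrays held 2 wild-type and 4 BRCA1+/- animals, and on slide 2 they were 1 wild-type and 4 BRCA1+/- animals. Their part in the differences below was tested only by leaving these arrays out or by a covariate, where so stated. Leaving them out removes every BRCA1+/- array of slide 2, so only replicates 1 and 2 of each BRCA1+/- group remain, all on slide 1. Wild-type arrays of both slides remain. Values without the 6 arrays therefore cannot be told apart from a difference between the slides. In such whole-ovary RNA, fewer cells of a type and less RNA per cell cannot be told apart.

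Brca1 itself, the gene that defines the genotypes, had a mean level of -0.49 in wild-type and -0.90 in BRCA1+/- ovaries, a ratio of 0.75. With vehicle, the wild-type arrays read -0.13, -0.10, -0.68 and -0.79 and the BRCA1+/- arrays -0.93, -0.76, -1.28 and -1.43. With olaparib, the wild-type arrays read -0.76, -0.72, 0.19 and -0.89 and the BRCA1+/- arrays -0.48, -0.81, -1.17 and -0.36. The vehicle groups overlapped by 1 array each, and the olaparib groups overlapped between -0.89 and -0.36. The pooled difference was -0.42 ± 0.19 (SE; 95% interval -0.83 to -0.0044), with an unadjusted p of 0.0479 and an adjusted p of 0.9999 in limma over all genes. An exact two-sided permutation test of the genotype labels within each treatment, over 4900 arrangements, gave p = 0.0604, where the smallest p this design allows is 0.000408. A second exact two-sided permutation test, within each treatment and slide over 1296 arrangements, was added after the data and the first result were seen and gave p = 0.0463, where the smallest is 0.00154. The p thus lay on either side of 0.05 according to the arrangement allowed, and the first test is the one that was planned. The difference was -0.67 with vehicle and -0.16 with olaparib, and these did not differ past the threshold (interaction 0.52, unadjusted p 0.20 and adjusted p 0.967 in limma). The olaparib value leaned on 1 array, replicate 3 of wild-type, at 0.19. The other wild-type arrays with olaparib all lay within the BRCA1+/- range of that arm, -1.17 to -0.36. A lower Brca1 level with olaparib was therefore not shown. Leaving out that array gave a pooled value of -0.29. By slide, the pooled value over all arrays read -0.32 (slide 1) and -0.51 (slide 2). Without the 6 arrays with raised oviduct genes it was -0.13. Since the position of the mutation is not given, the probe may lie outside the altered part, and a lower level at this probe is a weak check of the labels.

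**Figure D1:**
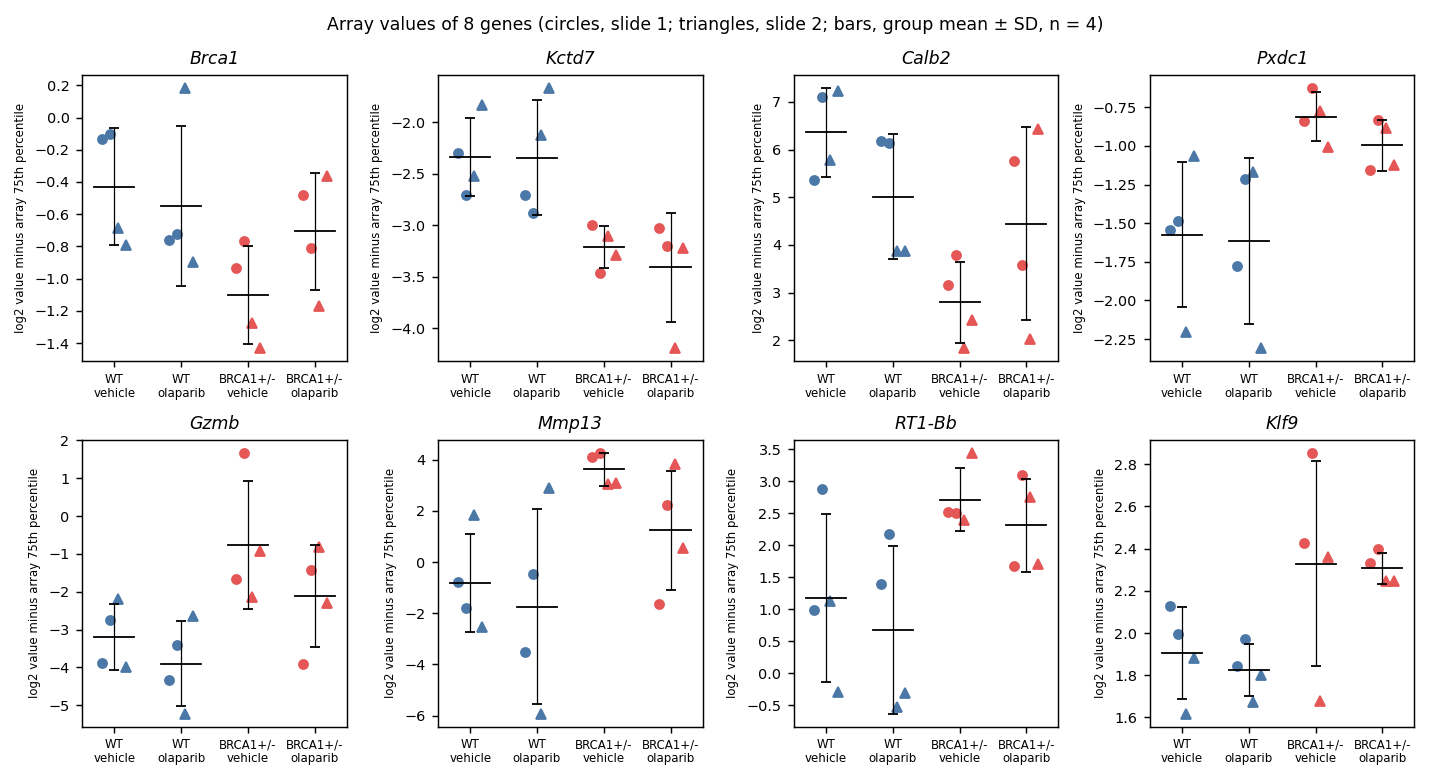
Log2 values, each minus its array's 75th percentile, of 8 genes in wild-type (blue) and BRCA1+/- (red) ovaries, by treatment; circles are arrays of slide 1, triangles of slide 2, and black bars the group mean ± SD (n = 4). Kctd7 is the gene whose 8 BRCA1+/- arrays, from -4.20 to -3.00, all lie below the 8 wild-type arrays, from -2.89 to -1.66; the other 7 genes overlap between the genotypes.

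No gene passed the test at an adjusted p below 0.05 (0 of 20354, or 0%), and the lowest adjusted p was 0.9999 (limma, Benjamini-Hochberg). At an unadjusted p below 0.05 there were 449 genes, or 2.21% of those tested, of which 198 (0.973%) were higher and 251 (1.23%) lower in BRCA1+/- ovaries. An even spread of p-values would put a share of 0.05 of the genes there, which is more than the share seen. The median SE of a gene's difference was 0.21 and the median 95% interval reached 0.45 to either side, so for a typical gene a change of less than that size in either direction could not have been told from 0. In total 242 genes had a difference of more than 1 in size, 194 of them higher and 48 lower, none of them past the adjusted threshold. The median difference over all genes was -0.02.

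Within the arms, no gene passed at an adjusted p below 0.05 either. With vehicle, 1118 genes (5.49%) had an unadjusted p below 0.05, 394 higher (1.94%) and 724 lower (3.56%). With olaparib there were 187 (0.919%), 113 higher (0.555%) and 74 lower (0.364%). The vehicle arm thus held more genes at this level than the pooled comparison, which has the larger number of animals.

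**Figure D2:**
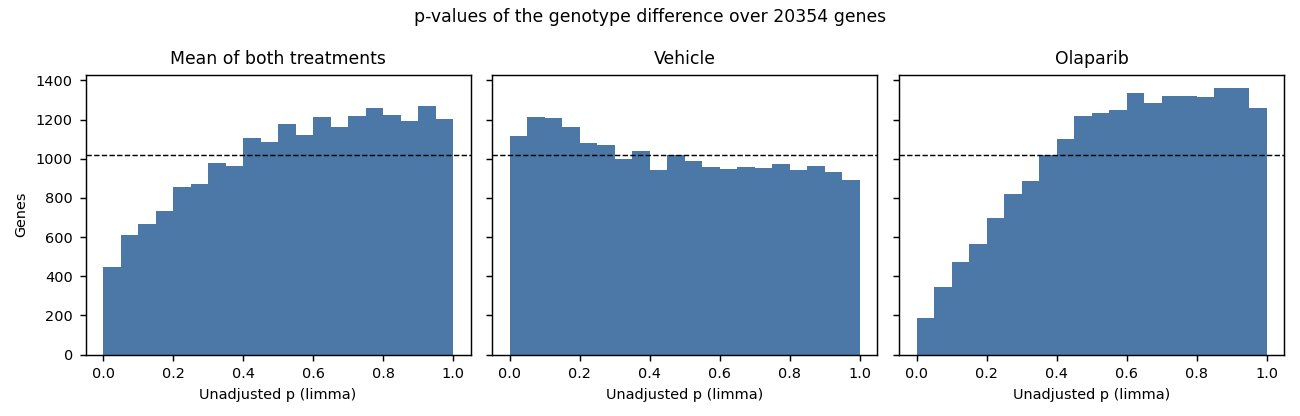
Number of genes in each 0.05-wide bin of the unadjusted limma p for the genotype difference, over both treatments and within each; the dashed line is an even spread of the 20354 genes. The lowest bin holds 449 genes pooled, 1118 with vehicle and 187 with olaparib.

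The vehicle and olaparib differences share no animal, yet over the 20354 genes they ran in opposite directions more often than in the same one. The sign was the same for 42.3% of genes, with a Pearson r of -0.286 (Spearman rho -0.197) across genes, which are not independent replicates. Without the 6 arrays with raised oviduct genes, r was 0.205, and with the oviduct level as a covariate it was -0.003. Of the 1118 genes at an unadjusted p below 0.05 with vehicle, 467 had the same sign with olaparib, and 15 of them were below 0.05 there too (1.34% of the 1118 and 8.02% of the 187), against 8 with the opposite sign. The slides gave a like picture: their differences had an r of -0.476, and of 1135 genes below 0.05 on slide 1 (5.58%), 15 were below 0.05 with the same sign on slide 2 and 43 with the opposite sign, out of 1056 (5.19%) below 0.05 there.

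The 15 genes with the same sign and an unadjusted p below 0.05 in both arms were Kctd7, LOC102550645, Ndufb10, Eif4ebp2 and 2 unnamed probes, which were lower in BRCA1+/- ovaries, and Ctsw, RT1-Bb, Bmx, Pxdc1, Gabrg1, Scg2, 1700001K19Rikl, LOC100910319 and 1 unnamed probe, which were higher. Scg2 encodes secretogranin II, a protein of secretory granules, and differed by 1.31 with vehicle and 1.28 with olaparib. Eif4ebp2, a repressor of cap-dependent translation, differed by -0.37 and -0.40. These genes were picked on both arms' p-values, so their likeness between the arms is no finding of its own.

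**Figure D3:**
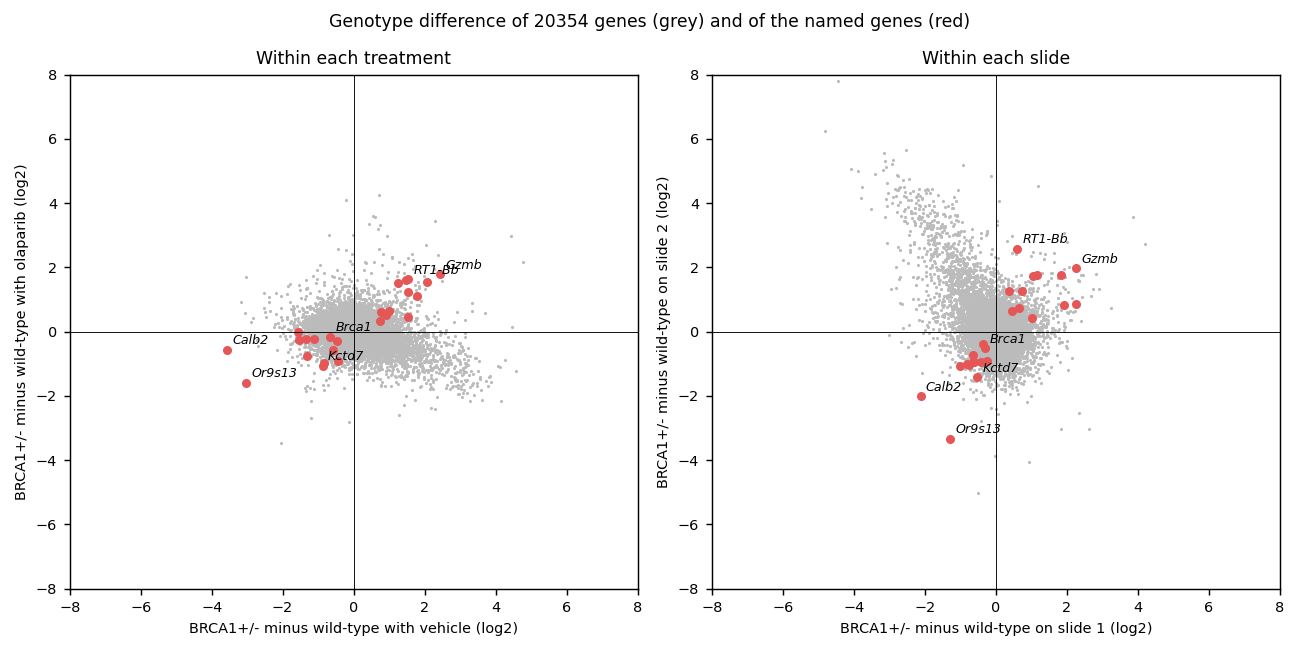
Genotype difference (BRCA1+/- minus wild-type, log2) of each of 20354 genes with vehicle against with olaparib (left) and on slide 1 against slide 2 (right); red points are the 24 genes named for the smallest p, and Brca1. The grey points run from upper left to lower right, with an r of -0.286 between treatments and -0.476 between slides; the red genes were chosen for their pooled difference and so lie near the other diagonal.

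Kctd7 was the 1 gene of 20354 (0.00491%) in which all 8 BRCA1+/- arrays lay on one side of all 8 wild-type arrays. It encodes an adaptor of cullin-3 ubiquitin ligases that modulates neuronal excitability, and its loss causes a progressive myoclonic epilepsy in humans. Wild-type arrays read -2.30, -2.71, -2.52 and -1.83 with vehicle and -2.71, -2.89, -2.13 and -1.66 with olaparib. BRCA1+/- arrays read -3.00, -3.47, -3.10 and -3.29 with vehicle and -3.02, -3.20, -4.20 and -3.23 with olaparib. The highest BRCA1+/- array was 0.11 below the lowest wild-type array, and the probe was well above background on all 16 arrays. A gene can separate in this way by chance when 20354 are searched, and how many would do so was not tested. The difference was -0.97 ± 0.22 (SE), a ratio of 0.510, with an unadjusted p of 0.000461 and an adjusted p of 0.9999 in limma. It was -0.87 with vehicle and -1.07 with olaparib, and -0.52 on slide 1 and -1.42 on slide 2. LOC102550645, an uncharacterised locus whose probe lies at 26846424 on the same chromosome 12, had a fitted difference of -0.91 ± 0.22. It was well above background on all 8 wild-type arrays and on 2 of 8 BRCA1+/- arrays, none of them with olaparib, so the fitted value partly rests on arrays not well above background. With olaparib it was at least 1.97-fold lower in BRCA1+/- ovaries.

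Among the 12 symbols with the smallest p in the higher direction were Gzmb, Ctsw, Gpr183 and RT1-Bb. Gzmb, the killer-cell protease granzyme B, ran from -5.22 (median -3.65) to -2.19 in wild-type and from -3.92 (median -1.54) to 1.67 in BRCA1+/- ovaries, a difference of 2.11 ± 0.60 or a ratio of 4.32. Its second probe differed by 1.88. Ctsw, cathepsin W, a protease of cytotoxic and natural killer cells, ran from -6.08 (median -5.47) to -4.14 in wild-type and from -5.18 (median -3.97) to -3.09 in BRCA1+/- ovaries, a fitted difference of 1.39 ± 0.32, and was well above background on 3 wild-type and 7 BRCA1+/- arrays. The genotypes overlapped in both genes, with replicate 1 of BRCA1+/- with olaparib the lowest of its genotype in each. Gpr183, an oxysterol receptor that positions lymphocytes and macrophages in tissue, differed by 1.45 ± 0.43. RT1-Bb, the beta chain of a rat class II histocompatibility molecule, ran from -0.53 (median 1.05) to 2.88 in wild-type and from 1.68 (median 2.51) to 3.44 in BRCA1+/- ovaries, a difference of 1.58 ± 0.47. RT1 genes have near-identical copies and many alleles, so the level read by a single RT1 probe is uncertain, and other RT1 probes, RT1-Ba (-2.76 ± 0.96) and RT1-CE10 (-1.95 ± 0.84), differed the other way, as given below.

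The other higher symbols had roles in signalling, protease inhibition and the synapse. 1700001K19Rikl was above background on 0 of 8 wild-type and 5 of 8 BRCA1+/- arrays, and was at least 2.21-fold higher, with a fitted difference of 1.80 ± 0.38 and the lowest p of the comparison (0.000282, adjusted p 0.9999 in limma). This bound sets the BRCA1+/- mean over all 8 arrays against the dimmest probe well above background on each wild-type array. Bmx, a TEC-family kinase of endothelium and bone marrow, differed by 0.81 ± 0.20, and Rasl11b, a small GTPase-like protein, by 0.71 ± 0.18. Pxdc1, a PX-domain protein, ran from -2.31 to -1.06 in wild-type and from -1.15 to -0.62 in BRCA1+/- ovaries, so only the top wild-type array reached into the BRCA1+/- range, and differed by 0.69 ± 0.19. Serpinb6b, a granzyme inhibitor of the serpin family whose probe lies on chromosome 17 (37816952) as that of Pxdc1 does (36641259), differed by 0.54 ± 0.15. Gria1, an AMPA glutamate receptor subunit, differed by 1.00 ± 0.26, Gabrg1, a GABA receptor subunit, by 1.37 ± 0.41, and the uncharacterised LOC100910319 by 1.55 ± 0.43. Replicate 1 of BRCA1+/- with olaparib was the lowest BRCA1+/- array in 10 of these 12 genes.

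The lower symbols included calretinin, a mitochondrial subunit and an ion channel. Calb2, calretinin, a calcium-binding protein found in neurons and in steroid-producing cells, ran from 3.87 (median 5.96) to 7.22 in wild-type and from 1.83 (median 3.37) to 6.42 in BRCA1+/- ovaries, a difference of -2.07 ± 0.63 or a ratio of 0.239. Its second probe differed by -1.92 and correlated with the first at r = 0.995 over the 16 arrays. With vehicle the BRCA1+/- arrays, at 3.16, 3.78, 1.83 and 2.43, all lay below the wild-type arrays, at 5.36, 7.10, 5.78 and 7.22, whereas with olaparib the groups overlapped. The difference was -3.56 with vehicle and -0.57 with olaparib (interaction 3.00, unadjusted p 0.0305, adjusted p 0.967 in limma).

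Ndufb10, a subunit of respiratory complex I, ran from 5.24 to 6.43 in wild-type and from 5.04 to 5.99 in BRCA1+/- ovaries and differed by -0.58 ± 0.18. Its size was close in both arms, at -0.59 with vehicle and -0.57 with olaparib. Alkbh7, a mitochondrial dioxygenase of programmed necrosis, differed by -0.38 ± 0.10, with 7 of 8 BRCA1+/- arrays below all wild-type arrays. Kcnt1, a sodium-activated potassium channel, ran from 1.41 to 2.32 in wild-type and from 0.27 to 2.29 in BRCA1+/- ovaries and differed by -0.79 ± 0.19, and its second probe by -0.69. Spink2, a protease inhibitor best known from sperm, differed by -1.04 ± 0.32, and its second probe by -1.23. Batf2, an interferon-induced transcription factor, differed by -0.90 ± 0.25 (well above background on 6 wild-type and 3 BRCA1+/- arrays), Prss41, a serine protease, by -0.68 ± 0.20, Ralgdsl7 by -0.68 ± 0.20 and the uncharacterised LOC100909782 by -0.78 ± 0.18. Or9s13, an olfactory receptor gene, was well above background on 7 of 8 wild-type arrays and 1 of 8 BRCA1+/- arrays, so its fitted difference of -2.31 ± 0.70 partly rests on arrays not well above background. With vehicle, where it was above background on 4 wild-type and 0 BRCA1+/- arrays, it was at least 5.41-fold lower in BRCA1+/- ovaries.

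Larger fitted differences with wider spread lay further down the order of p. Mmp13, a collagenase that degrades interstitial collagens, read -0.78, -1.80, 1.85 and -2.55 in wild-type with vehicle and -3.50, -0.46, -5.92 and 2.88 in wild-type with olaparib. It read 4.09, 4.26, 3.06 and 3.07 in BRCA1+/- with vehicle and -1.64, 2.22, 3.82 and 0.53 in BRCA1+/- with olaparib. All BRCA1+/- arrays with vehicle were above every wild-type array, and replicate 1 with olaparib was below 4 of them. The difference was 3.71 ± 1.12, a ratio of 13.1, with an unadjusted p of 0.00495 and an adjusted p of 0.9999 in limma, and it was 2.04 without the 6 arrays with raised oviduct genes. Cimap2, a gene of microtubule inner proteins of cilia that is also called lymphocyte expansion molecule, was chosen after its values were seen. It was well above background on 2 of 8 wild-type and 7 of 8 BRCA1+/- arrays, with a fitted difference of 3.46 ± 1.05, and replicate 4 of wild-type with olaparib read 0.33 against -7.67 to -4.40 on the other 7 wild-type arrays. With that array left out the adjusted p was 0.0404 in limma, the single call over the settings tried, and 1 of the other 7 wild-type arrays was well above background, so the fitted 4.46 is no measured size. On slide 1, where 0 wild-type and 3 BRCA1+/- arrays were above background, it was at least 9.81-fold higher in BRCA1+/- ovaries.

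Each slide was also fitted on its own, with 4 arrays a genotype. On slide 1 no gene passed at an adjusted p below 0.05 (0%), and on slide 2 there were 5 (0.0246%), chosen here for that result. RT1-Ba, the alpha chain of a class II molecule, read -3.31, -1.82, -3.84 and -2.25 on the wild-type arrays of slide 2 and -7.06, -8.19, -7.78 and -8.23 on the BRCA1+/- arrays, none of which was well above background, so it was at least 10.5-fold lower there (fitted difference -5.01, adjusted p 0.0486 in limma). On slide 1 it read -4.10, -7.30, -3.59 and -7.79 in wild-type and -6.97, -2.50, -7.61 and -7.76 in BRCA1+/- animals, a fitted difference of -0.51. The animals thus fell into a brighter and a dimmer set with a wide gap, and the dimmer set held 2 of the 8 wild-type and 7 of the 8 BRCA1+/- animals. The pooled fitted difference was -2.76 ± 0.96 (adjusted p 0.9999 in limma).

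RT1-CE10, a class I histocompatibility gene, differed by -3.89 on slide 2 and -0.02 on slide 1, and by -1.95 ± 0.84 pooled. Ephx2, soluble epoxide hydrolase, differed by -3.04 on slide 2 and 1.83 on slide 1, and was above background on 2 of the 4 BRCA1+/- arrays of slide 2. The long non-coding RNA gene LOC100910237 was well above background on 0 of 4 wild-type arrays of slide 2 and at least 16.7-fold higher in BRCA1+/- animals there, with a fitted difference of -0.12 on slide 1. In these 3 genes, as in RT1-Ba, some animals of slide 1 read as the other genotype did on slide 2. A probe for the uncharacterised LOC102554559 differed by 2.32 on slide 2 and -0.03 on slide 1. The difference between slides itself passed the adjusted threshold for 0 of 20354 genes (0%), with 1751 (8.60%) below an unadjusted p of 0.05 (limma, genotype by slide term).

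The genes that work beside BRCA1 differed less than Brca1 did. Of 22 genes of a list of Brca1 and its direct partners, 15 were lower and 7 higher in BRCA1+/- ovaries, against 54.6% lower over all genes, with a list median of -0.04. Brca1 alone was below an unadjusted p of 0.05 (4.55% of the list, against 2.21% of all genes). Rad50, a subunit of the break-sensing MRN complex, differed by -0.23 ± 0.16, and Bard1, the obligate partner of BRCA1, by -0.19 ± 0.18. Brca2, which works downstream of BRCA1 in the same repair, differed by -0.10 ± 0.21, and Palb2, the bridge between BRCA1 and BRCA2, by 0.06 ± 0.23. The highest value was that of Atrip, which recruits the ATR kinase, at 0.17 ± 0.15. With vehicle 18 of the 22 were lower and with olaparib 16 were higher. Without the 6 arrays with raised oviduct genes the median was 0.06.

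Over 42 homologous recombination genes the median was -0.10 and 33 were lower, against 54.6% lower over all genes. The median was -0.31 with vehicle and 0.11 with olaparib, and 0.0086 without the 6 arrays with raised oviduct genes. Gen1, a Holliday junction resolvase, differed by -0.52 ± 0.18 and was, beside Brca1, the other member below an unadjusted p of 0.05 (p 0.0140, adjusted p 0.9999 in limma). Both were lower, or 4.76% of the list, against 1.23% lower over all genes. This share counts Brca1, the gene that defines the genotypes, and Gen1 alone beside it. Of 21 end-joining genes 18 were lower (median -0.06), with Paxx, a scaffold of non-homologous end joining, at -0.33 ± 0.13. The end-joining median was -0.21 with vehicle and 0.02 with olaparib, and -0.05 without the 6 arrays. Of 18 Fanconi anaemia genes 13 were lower (median -0.05), with Fancg at -0.23 ± 0.10 and its second probe at -0.15 ± 0.16. In this list 14 were lower with vehicle and 12 were higher with olaparib, and the median without the 6 arrays was 0.02. Of 22 base excision and single-strand break repair genes 15 were lower (median -0.05), and Mpg, a DNA glycosylase, was higher by 0.25 ± 0.11. The median of that list was -0.19 with vehicle and 0.03 with olaparib, and 0.04 without the 6 arrays. The PARP family and ADP-ribose turnover list, which holds the targets of olaparib, had a median of -0.02 over 22 genes, with Tiparp, a mono-ADP-ribosyltransferase, at 0.59 ± 0.33. Its median was -0.12 with vehicle and 0.10 with olaparib, and 0.05 without the 6 arrays.

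Damage checkpoint genes had a median of -0.04 over 20 genes, -0.22 with vehicle and 0.07 with olaparib, with Mdc1, a scaffold at breaks, at -0.29 ± 0.14. The list of oocyte damage checkpoint and BCL2 family genes had a median of -0.03 over 26 genes, 14 of them lower, 0.03 with vehicle and -0.0039 with olaparib. No member of either list was below an unadjusted p of 0.05.

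Genes of the cell cycle were mostly on the lower side. Of 52, 48 were lower in BRCA1+/- ovaries, with a median of -0.21, and 1 had an unadjusted p below 0.05 (1.92%, against 2.21% of all genes). That one was Aurka, a mitotic kinase, which was higher, at 0.71 ± 0.29. Tk1, thymidine kinase, had the lowest value, -0.77 ± 0.52, and Ccnd2, a cyclin of granulosa cells, was at -0.24 ± 0.13. The second probe of Tk1 was at -0.45 ± 0.50. The list's median was -0.52 with vehicle, where 49 were lower, and 0.12 with olaparib, where 44 were higher. The 8 BRCA1+/- arrays ran from -0.57 to 0.44 in the list's centred mean level and the wild-type arrays from -0.45 to 0.55, so the genotypes overlapped. Over the same arms the oviduct ciliated list ran the other way, at 2.13 with vehicle and -0.87 with olaparib, and the cell cycle median was -0.18 with the oviduct level as a covariate and 0.03 without the 6 arrays with raised oviduct genes.

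The 5 genes most like Brca1 across the 16 arrays, by Pearson r of residuals from the group means, were Bex2 (0.930), Mcm7 (0.929), Scml2 (0.919), Wdhd1 (0.915) and Dsn1 (0.914). Mcm7 belongs to the replicative helicase, Wdhd1 links it to the polymerase, and Dsn1 is a kinetochore protein. Their genotype differences were 0.23 for Bex2, -0.13 for Mcm7, 0.01 for Scml2, -0.17 for Wdhd1 and -0.16 for Dsn1, none below an unadjusted p of 0.05. The residuals share each array's RNA and scaling, so these r values are a description.

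The neighbourhood of Brca1 was searched because a mutant copy is inherited together with its flanking chromosome. Of 130 genes with a probe within 2 Mb of the Brca1 probe, Brca1 itself left out, 5 had an unadjusted p below 0.05 (3.85%, against 2.21% of all genes), and of 238 within 5 Mb 7 did (2.94%). The median difference was -0.05 in both windows. The named ones, chosen after their values were seen, were Hap1, Hsd17b1, Cd300lg, Mpp2 and Higd1b. Cd300lg, an endothelial receptor of lymphocyte homing that lies 608446 bases from the Brca1 probe, had the largest difference, 2.87 ± 1.19. Its arrays read 0.74, 1.49, 2.56 and -5.31 in wild-type with vehicle and 0.07, 2.29, -6.35 and -2.58 in wild-type with olaparib. They read 2.78, 2.90, 1.41 and 1.56 in BRCA1+/- with vehicle and 1.44, 2.23, 2.46 and 1.07 in BRCA1+/- with olaparib. Thus 3 wild-type animals read -2.58 or less, and no BRCA1+/- animal read below 1.07. A second probe differed by 2.12 and correlated with the first at r = 0.965. Hsd17b1, which makes oestradiol in granulosa cells, differed by -0.46 ± 0.18, Mpp2 by -0.37 ± 0.16, Higd1b, a pericyte gene, by 0.77 ± 0.35 and Hap1 by 0.53 ± 0.23.

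**Figure D4:**
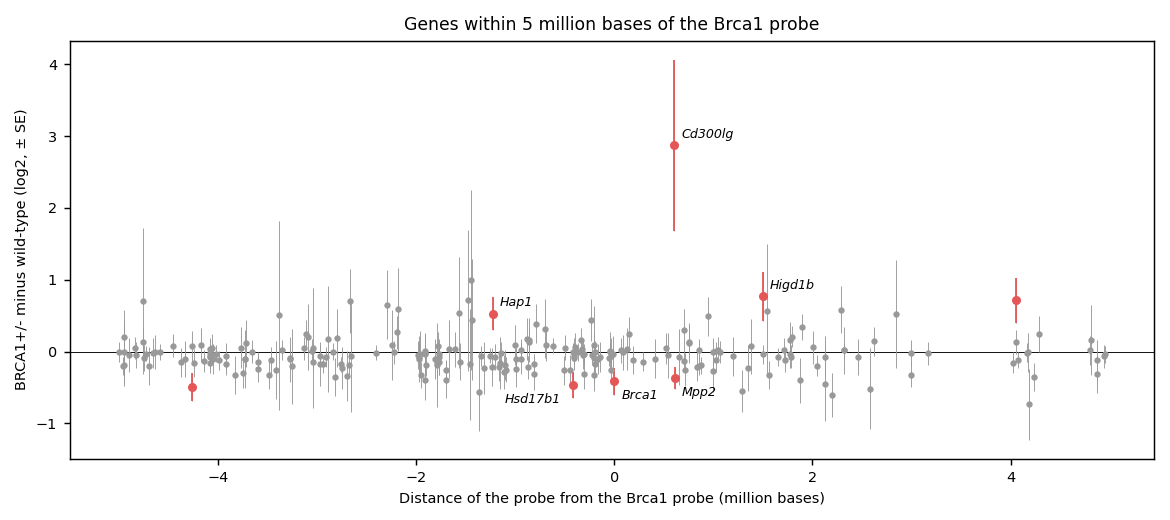
Genotype difference (BRCA1+/- minus wild-type, log2, ± SE) of genes with a probe within 5 Mb of the Brca1 probe, by distance from it; red points have an unadjusted p below 0.05, and 2 of them have no symbol. Cd300lg stands highest at 2.87 and Brca1 itself is at -0.42, while the median of the genes is -0.05.

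Granulosa cell genes had a median of -0.07 over 20 genes, 11 of them lower, which was 0.16 on slide 1 and -0.41 on slide 2. Below an unadjusted p of 0.05 were 2 lower genes (10%, against 1.23% lower over all genes). These were Fst, follistatin, the activin-binding protein, at -0.52 ± 0.18, and Hsd17b1. Nr5a2, a transcription factor required for ovulation, was at -0.48 ± 0.26, and its second probe at -0.33 ± 0.28. Of the 9 higher members, Cyp19a1 was at 0.52 ± 0.58, Amh at 0.46 ± 0.34 and Amhr2 at 0.30 ± 0.27. In the inhibin and activin axis, the inhibin subunits Inhbb and Inha were at -0.46 ± 0.26 and -0.26 ± 0.18, and 13 of 19 members were lower (median -0.10). Fst was at -1.11 with vehicle and 0.07 with olaparib, and Hsd17b1 at -0.75 and -0.18. In the same order Nr5a2 was at -0.88 and -0.07, Inhbb at -0.74 and -0.17, and Inha at -0.55 and 0.04. Theca and interstitial steroid cell genes had a median of 0.00 over 15 genes, which was 0.15 on slide 1 and -0.27 on slide 2, with Aldh1a1, a retinal dehydrogenase, at 0.51 ± 0.25, and steroid synthesis genes -0.01 over 27. Ovarian stroma fibroblast genes had a median of 0.15 over 15, with Dcn at 0.31 ± 0.23.

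Oocyte genes tended to the higher side without passing the test. Of 18 genes of oocytes in growing follicles, 16 were higher, with a median of 0.22 in the pooled comparison, 0.28 with vehicle and 0.19 with olaparib. The zona pellucida gene Zp2 was at 0.53 ± 0.32, Zp1 at 0.41 ± 0.28, Padi6, an oocyte lattice protein, at 0.47 ± 0.29, and Gdf9, the oocyte's growth factor, at 0.38 ± 0.29. None had an unadjusted p below 0.05. Of 10 genes of small-follicle oocytes, 8 were higher, with a median of 0.26, which was 0.05 with vehicle and 0.36 with olaparib, and 0.33 on slide 1 and 0.05 on slide 2. Figla, the transcription factor that drives zona genes, was below an unadjusted p of 0.05 (p 0.0367, adjusted p 0.9999 in limma). It was the 1 such member of its list (10%, against 2.21% of all genes). Figla ran from -3.85 (median -2.72) to -1.22 in wild-type and from -2.46 (median -1.95) to -0.97 in BRCA1+/- ovaries, a difference of 0.76 ± 0.33. In the centred mean level of the growing-oocyte list, wild-type arrays ran from -0.83 to 1.05 and BRCA1+/- arrays from -0.51 to 0.79, so the genotypes overlapped. The growing-oocyte median was 0.80 without the 6 arrays with raised oviduct genes, and 0.50 on slide 1 against -0.03 on slide 2. Genes of primordial follicle activation had a median of -0.01 over 27, with Akt2, a kinase of the PI3K pathway, at -0.50 ± 0.24 and Foxo1 at 0.38 ± 0.22. The second probe of Akt2 was at -0.24 ± 0.39. Of the AMH, BMP and GDF list 20 of 27 were higher (median 0.12), while Bmp4, a theca-derived factor, was at -0.49 ± 0.21.

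The T and NK cell list had a median of 0.32 over 13 genes, with 10 higher, and the same rounded median in each arm. Beside Gzmb, Il2rb, the interleukin-2 receptor beta chain, was at 0.70 ± 0.27, and Prf1, perforin, at 0.68 ± 0.38. The 3 lower members were Lck at -0.12 ± 0.35, Zap70 at -0.12 ± 0.17 and Cd4 at -0.01 ± 0.26. Lck was well above background on 4 wild-type and 5 BRCA1+/- arrays. Cd8a was at 0.12 ± 0.48 and Cd3d at 0.20 ± 0.19. The centred mean level of the list ran from -0.59 (median -0.27) to 0.33 in wild-type and from -0.62 (median 0.37) to 0.70 in BRCA1+/- ovaries. Macrophage genes had a median of 0.21 over 17, with 14 higher and Laptm5 at 0.38 ± 0.23, but -0.10 on slide 1 against 0.63 on slide 2, and -0.06 without the 6 arrays with raised oviduct genes. Of 15 blood vessel endothelium genes 14 were higher (median 0.19; 0.50 on slide 1, -0.12 on slide 2, and 0.02 without those 6 arrays), with Cldn5, a tight junction protein, at 0.43 ± 0.18 and Plvap, a protein of fenestrae, at 0.36 ± 0.17. Smooth muscle and pericyte genes had a median of 0.23 over 15, with Tagln at 0.37 ± 0.25, and 0.05 without those 6 arrays. Of 11 red blood cell genes 10 were higher (median 0.20), while 9 were lower with olaparib (median -0.13, against 0.41 with vehicle), with Slc4a1, the red cell anion exchanger, at 0.49 ± 0.27, 1.05 with vehicle and -0.07 with olaparib. Of 7 neutrophil genes 5 were lower (median -0.16), although Fpr1, a formyl peptide receptor, was at 0.76 ± 0.29.

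Lists that mark tissue next to the ovary split by arm. The 16 ciliated oviduct genes were all higher in the pooled comparison, with a median of 0.62, and none was below an unadjusted p of 0.05. Dnai1, an axonemal dynein chain, was at 1.13 ± 1.01 and Ccno, a cyclin of multiciliated cells, at 0.58 ± 0.45. In the vehicle arm the list's median was 2.13, and with olaparib it was -0.87, where 15 of 16 were lower. The 10 secretory oviduct genes had medians of 0.58, 1.68 and -0.77 in the same order. Surface epithelium and mesothelium genes had medians of 0.02, 0.43 and -0.24. Cdh1, E-cadherin, was at 1.20 ± 0.48, with 2.45 in the vehicle arm and -0.04 with olaparib. Adipocyte genes had medians of -0.09, 0.27 and -0.56. In the pooled comparison 11 of 18 were lower, among them Fabp4 at -0.69 ± 0.70 and Dgat2 at -0.42 ± 0.34. Cidea, a lipid droplet protein, was higher at 0.78 ± 0.24, with 1.37 in the vehicle arm and 0.20 with olaparib. Nerve and Schwann cell genes had a median of 0.02 over 11.

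**Figure D5:**
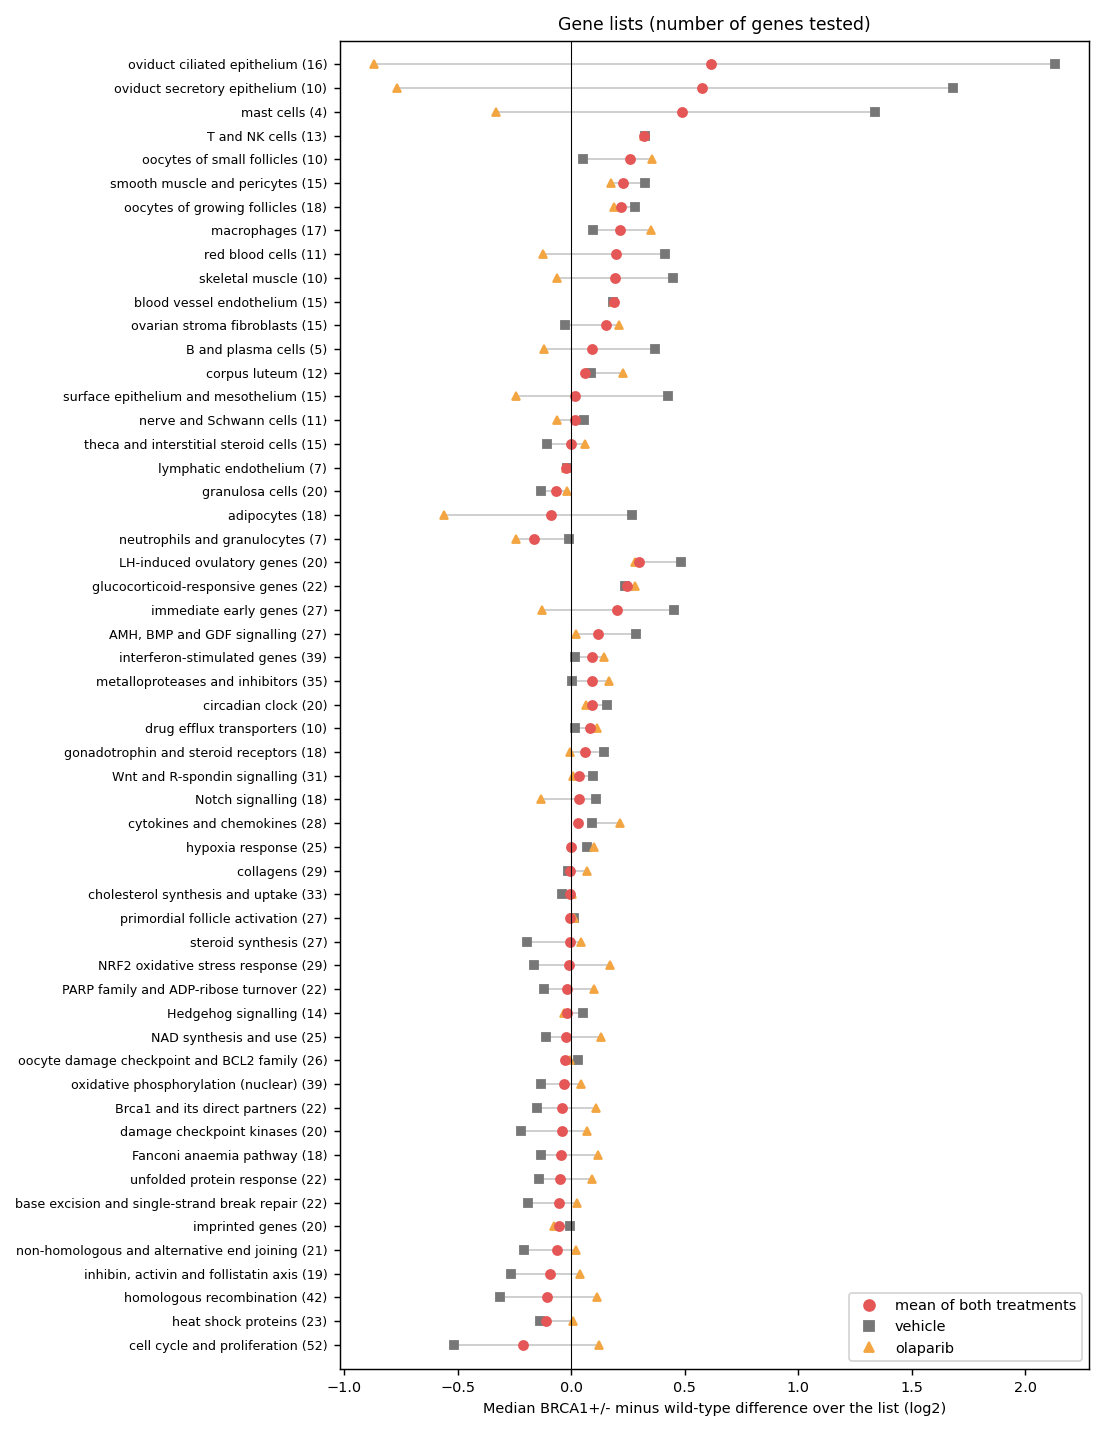
Median genotype difference (BRCA1+/- minus wild-type, log2) of gene lists, cell type lists above and pathway lists below, pooled over both treatments (red circles), with vehicle (grey squares) and with olaparib (orange triangles); the number of genes tested follows each name. The oviduct lists lie farthest apart between treatments, from 2.13 to -0.87 for ciliated genes. Several other lists hold close medians in both. Among these are T and NK cell, glucocorticoid-responsive, blood vessel endothelium, lymphatic endothelium and primordial follicle activation genes.

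Glucocorticoid-responsive genes had close medians in both arms, 0.24 with vehicle and 0.28 with olaparib (0.25 pooled), and 17 of 22 were higher. Of its members 5 were below an unadjusted p of 0.05, all higher (22.7%, against 0.973% higher over all genes), and none passed the adjusted threshold. Klf9, a transcription factor that is an early target of the glucocorticoid receptor, ran from 1.62 (median 1.86) to 2.13 in wild-type and from 1.68 (median 2.35) to 2.85 in BRCA1+/- ovaries. All BRCA1+/- arrays except replicate 3 with vehicle were above every wild-type array, and the difference was 0.45 ± 0.15 (unadjusted p 0.00802, adjusted p 0.9999 in limma). Pdk4, a kinase that spares glucose, was at 0.84 ± 0.28 and its second probe at 0.81. Nfkbia, an inhibitor of NF-kappaB, was at 0.40 ± 0.15, Errfi1, a brake on EGF receptors, at 0.42 ± 0.17, and the clock gene Per1 at 0.40 ± 0.18. The second probe of Errfi1 was at 0.66 ± 0.19, but that of Per1 was at 0.26 ± 0.26. In the list's centred mean level the wild-type arrays ran from -0.47 to 0.13 and the BRCA1+/- arrays from -0.06 to 0.35. Circadian clock genes, which share Per1, had a median of 0.09 over 20, with Nfil3 at 0.39 ± 0.18.

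Immediate early genes had a median of 0.20 over 27, with 0.45 in the vehicle arm and -0.13 with olaparib. Fosl1, a partner of JUN, was at 2.11 ± 0.84, Ccn2, a matricellular growth factor, at 0.57 ± 0.23 and Ier3 at 0.59 ± 0.24. Of 20 LH-induced ovulatory genes 15 were higher (median 0.30, and -0.06 without the 6 arrays with raised oviduct genes), among them Ier3, Ptx3, a protein of the cumulus matrix, at 0.60 ± 0.28, and Areg, an EGF-like factor of the ovulatory cascade, at 1.38 ± 0.66. Metalloprotease genes had a median of 0.09 over 35, with Adamts5, an aggrecanase, at 0.74 ± 0.32 beside Mmp13. Gonadotrophin and steroid receptor genes had a median of 0.06 over 18.

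The signalling and metabolic lists had medians near 0. Their named members were picked for the smallest p, so standing apart from the median reflects that choice. In the Wnt list (median 0.04 over 31), Rnf43 and Znrf3, paralogous ligases that remove Wnt receptors, differed in opposite directions, at 0.63 ± 0.25 and -0.38 ± 0.16. In the cytokine list (median 0.03 over 28), Cxcl14, a chemokine of stroma and epithelium, was at 0.94 ± 0.30 and its second probe at 0.76, and Il18 was at -0.73 ± 0.29. Of 20 imprinted genes (median -0.05), the maternally expressed RNA H19 was at 0.68 ± 0.28, and the paternally expressed Plagl1 and Mest were at -0.50 ± 0.21 and -0.48 ± 0.22. The second probe of Plagl1 was at -0.19 ± 0.18. Lox, a collagen cross-linker in the hypoxia list (median 0.00 over 25), was at 0.57 ± 0.24. Interferon-stimulated genes had a median of 0.09 over 39, with Batf2 as the 1 member below an unadjusted p of 0.05 (2.56%, against 2.21% of all genes). Oxidative phosphorylation genes had a median of -0.03 over 39, with Ndufs4 at -0.35 ± 0.18, and heat shock genes -0.11 over 23, with Hsp90ab1 at -0.26 ± 0.13.

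Mast cell genes had a median of 0.49 over 4, with 1.34 in the vehicle arm and -0.33 with olaparib, and -0.64 on slide 1 against 2.08 on slide 2. Skeletal muscle genes had a median of 0.19 over 10, and -0.04 without the 6 arrays with raised oviduct genes. The other cell type medians were those of corpus luteum (0.06 over 12), lymphatic endothelium (-0.02 over 7) and B and plasma cell (0.09 over 5) genes. The other pathway medians were those of Hedgehog (-0.02 over 14), Notch (0.04 over 18), unfolded protein response (-0.05 over 22), NRF2 (-0.01 over 29), NAD (-0.02 over 25), cholesterol (-0.01 over 33), collagen (-0.01 over 29) and drug efflux (0.08 over 10) genes.

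Whether the genotype difference itself depended on olaparib was tested by the interaction, the olaparib difference minus the vehicle difference. No gene passed at an adjusted p below 0.05 (0%), the lowest adjusted p was 0.967 in limma, and 701 genes (3.44%) were below an unadjusted p of 0.05, 413 (2.03%) with a positive and 288 (1.41%) with a negative interaction. Among the 5 symbols with the smallest p and a positive interaction, LOC100909782 differed between genotypes by -1.56 with vehicle and -0.01 with olaparib, Acot4, a peroxisomal thioesterase, by -1.19 and 0.39, LOC102550842 by -0.73 and 1.03, and Defb20, a defensin, by -0.27 and 0.67. The fifth, Kif26b, was at least 2.17-fold lower in BRCA1+/- ovaries with vehicle and above background on 1 of 8 arrays with olaparib. Among the 5 with a negative interaction, Hspa4l, a chaperone of the heat shock family, differed by 1.98 with vehicle and -0.92 with olaparib, H19 by 1.77 and -0.40, the immediate early receptor Nr4a3 by 1.99 and -0.61, and Rbp7, a retinol-binding protein, by 1.99 and -0.53. Tbx20 was at least 3.27-fold higher in BRCA1+/- ovaries with vehicle and above background on 1 of 8 arrays with olaparib.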

How the data were processed

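Ovary RNA of 16 rats was labelled with Cy3 and hybridised singly, per the labels' protocols. Spots were read with Agilent Feature Extraction (10.7 per the submitters' processing notes, 10.7.1.1 per the file headers), and the array design names build rn4. The scanner files hold intensity values that, per the file headers, are background-subtracted processed signals. The deposited table holds log2 values. Set against the scanner files probe by probe, each column equalled the log2 processed intensity minus a constant per array that put its 75th percentile at 0, with no centring of genes. The authors' statistical test is not given in the sources used here.

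Of 45598 non-control probes, 12 had no usable spot on an array. Probes well above background on at least 3 of the 4 arrays of a group were kept (26820), and the probe of highest mean stood for its gene, so values of different probes were never compared. Probes were named through RefSeq (assembly GRCr8) by accession (24367), symbol (6730) or older symbol (260), or kept the file's name (291); 13950 had none. Positions are those of build rn4. limma 3.58.1 in R 4.3.3 fitted the 4 group means to all 16 arrays, with the 2 genotype differences averaged, moderated errors and Benjamini-Hochberg adjustment over all 20354 genes; SE is the moderated one. A gene was called at an adjusted p below 0.05. The procedure was tested on simulated data. The number of arrays limits the precision.

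Named genes were Brca1 and partners, the 12 smallest p in each direction, genes without overlap, up to 4 members with the smallest p per list, 5 interactions in each direction and the 5 most like Brca1; of the list members those with a plain role are given, and the other partners as counts. The members, the 56 lists (1065 of 1186 names tested) and the tests were chosen with earlier results of these data known. Alternatives covered scaling, background correction, filters, models, blocks and each array left out. The arrays left out for their oviduct genes and the Brca1 permutation within slides were chosen after the data were seen. Animals were separate per the labels. Some genes and 1 list are not reported here.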

Additional observations from a re-analysis of the deposited data

Results flagged for a closer look

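For the 24 genes named for the smallest p, and Brca1, each of the 4 groups of 4 arrays was searched for an array far from the other 3. Of 100 groups, 7 held one, where chance gives about 1 in 20. Brca1 read 0.19 on replicate 3 of wild-type with olaparib against -0.89 to -0.72 on the other 3. Without that array its pooled genotype difference was -0.29. Kctd7 read -4.20 on replicate 3 of BRCA1+/- with olaparib against -3.23 to -3.02, and without it the difference was -0.84. RT1-Bb read 3.44 on replicate 4 of BRCA1+/- with vehicle against 2.39 to 2.51. Kcnt1 read 0.27 on replicate 3 of BRCA1+/- with vehicle against 0.90 to 0.97. 1700001K19Rikl read -5.68 on replicate 4 of wild-type with olaparib against -7.52 to -7.39. LOC102550645 read -4.30 on replicate 3 of wild-type with vehicle against -4.83 to -4.74. Prss41 read -4.54 on replicate 1 of wild-type with olaparib against -3.91 to -3.82.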

How the results depend on the processing

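The count of called genes stayed at 0 under every alternative scaling, background correction, filter, model and block, and ran from 0 to 1 on leaving out single arrays; the 1 was Cimap2 without replicate 4 of wild-type with olaparib. The calls with vehicle, with olaparib and for the interaction stayed at 0 throughout. Genes at an unadjusted p below 0.05 numbered 307 to 756 on leaving out arrays (756 without replicate 1 of BRCA1+/- with olaparib, 686 without replicate 3 of wild-type with olaparib), 769 with no filter, 918 with array quality weights, 733 with the replicate block and 896 without the 6 arrays of raised oviduct genes. Genes without overlap numbered 1 to 5 on leaving out arrays (5 without replicate 1 of BRCA1+/- with olaparib), 2 with every probe on its own and 197 without the 6 arrays, where fewer arrays have to stand apart. The correlation between the arms ran from -0.491 to 0.025 on leaving out arrays, crossing 0 without replicate 1 of wild-type with olaparib (0.025) or replicate 1 of BRCA1+/- with olaparib (0.020). It was -0.00346 with the oviduct covariate and 0.205 without the 6 arrays. Brca1 ranged from -0.48 to -0.29 on leaving out arrays, with an unadjusted p of 0.0614 under the replicate block against 0.0479 without it (limma). Palb2 ranged from -0.0608 to 0.187 on leaving out arrays, below 0 without replicate 4 of wild-type with vehicle, replicate 1 of wild-type with olaparib or replicate 1 of BRCA1+/- with vehicle, and without the 6 arrays Bard1 was 0.0141, Brca2 0.34 and LOC102550842 -0.0858. Without the 6 arrays the list medians of growing oocytes (0.80), neutrophils (-1.17) and AMH, BMP and GDF signalling (0.34) also moved past the spread; the other causes were not tested. Arrays with the same replicate number had residual correlations from -0.44 to 0.71, and 12 of 16 correlated best with their own number in another group; the number stands for slide and row here, and the replicate block changed no call.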
